A study of Homo sapiens with 3 samples.

Results

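Of 1169 vitamin D receptor (VDR) peaks listed for unstimulated THP-1 cells, 368 had no overlapping peak after calcitriol and were not pieces of a string, as defined below. These 368 regions (31.5%, exact 95% interval 28.8 to 34.2%) are described here. They were chosen by 2 conditions: a region shared 0 bp with any of the 1820 peaks listed for calcitriol-treated cells, and no other peak of its own list lay exactly 10 bp away. Peaks 10 bp apart are called a string here, because they adjoin like pieces of a longer stretch. Together the lists hold 2989 peaks. The choice used the overlap of the lists itself, so that the number of these regions and their distance from calcitriol peaks are descriptions.

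THP-1 is an established human monocytic leukaemia line, and the series maps VDR in it by sequencing the DNA recovered with a VDR antibody from cross-linked chromatin (ChIP-seq). The cells of both conditions spent the night before the experiment in medium free of phenol red with charcoal-stripped serum, which removes most steroid-like hormones. They were then either left without ligand or given 10 nM calcitriol (1α,25-dihydroxyvitamin D3) for 40 min. Each condition is 1 VDR library made by pooling 5 immunoprecipitations from 1 cell line, and the series' IgG control was not analysed here. Without a replicate library no difference between the conditions, or between classes of peaks as a property of a condition, was tested. The lists give positions without read counts, heights or p-values, and the depth behind them is unknown. Intervals cover counting error over peaks only, and neighbouring peaks are not independent.

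VDR, a member of the nuclear receptor family, contacts DNA mainly in a dimer with RXR, the retinoid X receptor, often at directly repeated hexamers. Part of the receptor is in the nucleus and on chromatin without ligand, where it can hold corepressors. Calcitriol changes the shape of the ligand-binding domain, which releases corepressors and brings in coactivators. In monocytes the liganded receptor is known for its part in differentiation and in antimicrobial gene expression.

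The regions were first placed within the unstimulated list. Besides the 368 unstimulated-only regions, the list held 480 single peaks that overlapped a calcitriol peak by 1 bp or more (41.1%, interval 38.2 to 43.9%) and 321 string pieces (27.5%, 24.9 to 30.1%). Across the whole list, 37.4% of peaks shared no base with the calcitriol list, and among its 848 single peaks the figure was 43.4%, which is the set of 368 by construction. In the longer calcitriol list 60.6% of peaks shared no base with the unstimulated list. String pieces were without a counterpart in 69 of 321 cases (21.5%, 17.1 to 26.4%). Those 69 are not among the regions described here. Together the 368 regions covered 0.503 Mb, against 0.728 Mb for the 480 shared single peaks.

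The row order of the deposited list divided these regions into 2 kinds. On 22 chromosomes the unstimulated list runs in order of position and then ends in rows that break this order, 170 rows in all. These rows held 105 of the 368 unstimulated-only regions (28.5%, interval 24.0 to 33.4%). They held none of the 480 shared single peaks (0 of 480, which allows a share of up to 0.625%). The other 65 were string pieces, of which 50 did share bases with a calcitriol peak. Every one of the 105 single peaks listed out of order therefore lacked a calcitriol counterpart. The calcitriol list had 0 rows out of order among 1820. How these rows came to be in the list is not given in the sources used here, and their part in the results was not tested. The main distances, shares and widths below are therefore also given for the 263 regions listed in order. Among the 999 in-order peaks 31.7% were unshared, and among the 743 single peaks listed in order the 263 were 35.4% (interval 32.0 to 39.0%).

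The distance from each region to the calcitriol list was measured next, as the gap between nearest edges. The median gap was 105.8 kb (quartiles 18.8 and 371.2 kb), with a lowest value of 0.14 kb and a highest of 5099 kb. For the 263 in-order regions the median was 58.3 kb (exact 95% interval of the median 43.4 to 85.3 kb), and for the 105 out-of-order regions it was 309.8 kb (221.1 to 408.5 kb). A calcitriol peak lay within 1 kb of 20 of the 368 regions (5.43%), all 20 of them in-order regions. Within 10 kb the count was 71 (19.3%, 15.4 to 23.7%), of which 66 were among the 263 in-order regions (25.1%) and 5 among the 105 out-of-order regions (4.76%). No calcitriol peak lay within 1 Mb of 43 regions (11.7%, 8.59 to 15.4%), and 23 of those were out of order. The regions were thus spread from immediate neighbours of calcitriol peaks to places megabases away, and the out-of-order regions lay toward the far end.

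**Figure D1:**
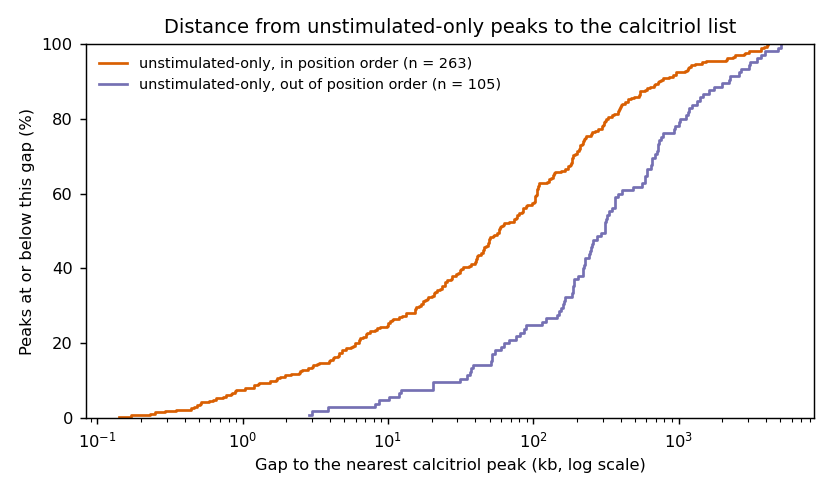
Cumulative share of unstimulated-only regions (vertical axis, percent) against the gap from each region to the nearest calcitriol peak (horizontal axis, kb, log scale), drawn separately for the 263 regions listed in position order and the 105 listed out of order. The in-order curve starts at 0.14 kb and reaches 50% at 58.3 kb, while the out-of-order curve starts at 2.86 kb and reaches 50% at 309.8 kb.

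The neighbourhoods of these regions were compared with those of the shared single peaks. At least 1 calcitriol peak lay within 100 kb of 177 of the 368 regions (48.1%, interval 42.9 to 53.3%). A further calcitriol peak, besides those overlapping it, lay within 100 kb of 235 of the 480 shared single peaks (49.0%, 44.4 to 53.5%). These pooled shares differed by less than the counting error of either, but all 480 shared single peaks are listed in order. Among the regions the share was 57.4% (51.2 to 63.5%) for those in order and 24.8% (16.9 to 34.1%) for those out of order. The pooled value thus mixes a higher and a lower one, and the in-order share is the like one to set beside the shared single peaks. Calcitriol-only single peaks, measured toward the shorter unstimulated list, had a peak of the other list within 100 kb in 281 of 984 cases (28.6%, 25.8 to 31.5%). That share and the others refer to lists of different length and are set side by side only.

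Within the unstimulated list itself, most regions and most shared single peaks had no close neighbour. Another unstimulated peak lay within 10 kb of 66 of the 368 regions (17.9%, interval 14.2 to 22.2%), against 102 of 480 shared single peaks (21.3%, 17.7 to 25.2%). The share was 21.3% (56 of 263) for in-order and 9.52% (10 of 105) for out-of-order regions. The median distance to the nearest peak of the own list was 187.5 kb for the regions and 187.1 kb for the shared single peaks. In-order regions had a median of 123.8 kb and out-of-order regions one of 421.5 kb, while all shared single peaks were in order. The nearest own peak was a shared single peak for 178 regions (48.4%), another unstimulated-only region for 141 (38.3%) and a string piece for 49 (13.3%). In the whole unstimulated list these classes made up 41.1, 31.5 and 27.5%, and a preference for any class of neighbour was not tested. Neither list held another peak within 100 kb of 161 regions (43.8%, 38.6 to 49.0%), against 216 shared single peaks (45.0%, 40.5 to 49.6%). For the in-order regions it was 95 of 263 (36.1%, 30.3 to 42.2%) and for the out-of-order regions 66 of 105 (62.9%, 52.9 to 72.1%), so that this pooled share also mixes a lower and a higher one.

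Some regions missed a calcitriol peak by very little. The nearest was chr7:113724421-113725721, 1300 bp wide, which began 140 bp after the end of a calcitriol-only peak 2100 bp wide. The next was chr1:245022141-245023031, 890 bp wide, which ended 170 bp before a calcitriol-only peak of 810 bp. On chromosome 5, the region at 139049491 to 139051790 (2299 bp) followed a calcitriol-only peak of 2220 bp after 230 bp. These 3 pairs are places where each state has a peak but the 2 peaks adjoin without touching. The region chr11:46368331-46369051 (720 bp) lay 250 bp from a calcitriol-only peak of 1110 bp. The region chr22:39916891-39917790 (899 bp) lay 291 bp from a calcitriol peak of 1990 bp that overlaps a different unstimulated peak. On the other side of the rule, the single unstimulated peaks with the smallest overlap shared 40 bp with a calcitriol peak, at chr17:79801961-79802951 and chr19:50001391-50002741. The next shared 129 bp at chr2:127555471-127556760 and 130 bp at chr17:79369851-79371061.

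The 20 regions within 1 kb of a calcitriol peak were looked at as a set. For 12 of them the nearest calcitriol peak was itself calcitriol-only, and for 8 it overlapped another unstimulated peak, so that the region lay beside a site kept in both states. Their median width was 1130 bp (quartiles 897 and 1263 bp), and that of the calcitriol peaks next to them was 1570 bp. In 13 of the 20 pairs (65.0%, interval 40.8 to 84.6%) the unstimulated-only region was the narrower one. The whole calcitriol list had a median width of 1430 bp, against 1315 bp for all 368 regions. Within 10 kb, 38 of 71 regions (53.5%, interval 41.3 to 65.5%) had a calcitriol-only peak nearest and 33 had a calcitriol peak shared with another unstimulated peak. The intervals for 12 of 20 and for 38 of 71 include the 60.6% of all calcitriol peaks that shared no base with the unstimulated list.

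At the far end, the region most distant from the calcitriol list was chr19:24183731-24184591, 860 bp wide, next to the centromere of chromosome 19, with the nearest calcitriol peak 5099 kb away. The region chr1:144998351-145001541, in the proximal long arm of chromosome 1, was 3190 bp wide and 4855 kb away. Both are out-of-order rows, and their nearest unstimulated peaks were 5009 and 4857 kb away. Next came a pair of in-order regions on chromosome 11, at 57434251 to 57435990 (1739 bp) and 57508311 to 57509671 (1360 bp). They lay 72.3 kb apart, and the nearest calcitriol peak was 4146 and 4072 kb away. The fifth was chr8:109596481-109597181 (700 bp, out of order) at 3914 kb. Among in-order regions the chromosome 11 pair was followed by chr6:125622391-125623281 (890 bp) at 3900 kb, chr7:105752851-105753571 (720 bp) at 3685 kb and chr11:6632551-6634251 (1700 bp) at 3682 kb. The pair on chromosome 11 shows that even very distant regions need not be solitary in their own list.

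The regions had a median width close to the 1340 bp of the whole unstimulated list, but below that of its shared single peaks. The median of the 368 regions was 1315 bp (quartiles 1020 and 1652 bp, exact 95% interval of the median 1260 to 1379 bp), and 245 of them were from 1000 up to 2000 bp wide. Shared single peaks had a median of 1480 bp (quartiles 1170 and 1833 bp, interval 1440 to 1539 bp). Calcitriol-only single peaks had one of 1379 bp (1070 and 1699 bp). A wider peak has more chance of touching a peak of the other list, so width is not independent of the choice of the regions and the difference from shared peaks was not tested. In-order regions had a median of 1359 bp and out-of-order regions one of 1259 bp. Over all chromosomes the out-of-order regions had the larger standard deviation of width, 651 bp over the 105 against 470 bp over the 263. On chromosome 1 the standard deviation was 1039 bp for the 18 out-of-order regions and 604 bp for the 35 in-order ones. On chromosome 19 it was 842 bp for 8 out-of-order regions and 410 bp for 39 in-order ones. For the 87 out-of-order regions outside chromosome 1 it was 475 bp. The in-order value without chromosome 1 is not given, so this difference cannot be assigned to 1 chromosome. The out-of-order regions included 8 of the 13 regions of 2500 bp or more and 4 of the 7 under 500 bp.

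**Figure D2:**
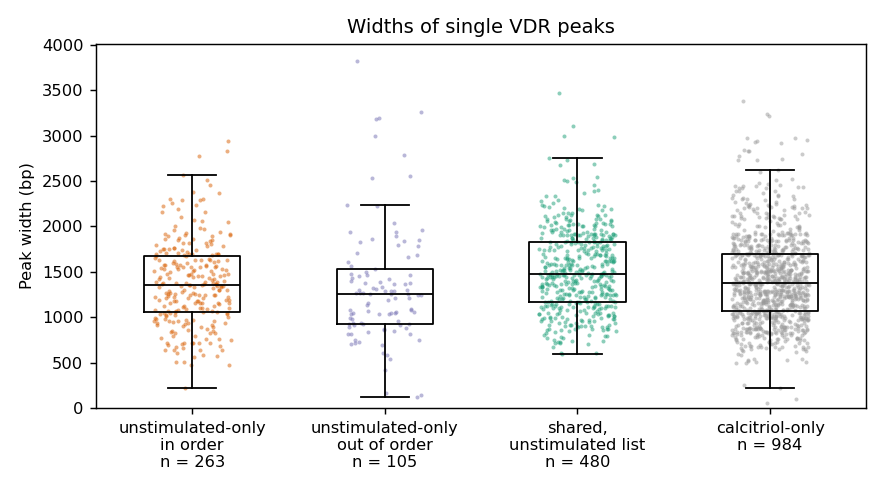
Width of every single peak (vertical axis, bp) in 4 classes: unstimulated-only regions in position order (n = 263) and out of order (n = 105), shared single peaks of the unstimulated list (n = 480) and calcitriol-only single peaks (n = 984). Points are peaks, spread sideways at random, boxes show the median and quartiles, and whiskers reach the last point within 1.5 times the interquartile range. The medians are 1359, 1259, 1480 and 1379 bp, and the out-of-order class has points both above 3000 bp and below 200 bp.

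The 8 widest regions were named by rule. The widest was chr1:41325191-41329011 at 3820 bp, followed by chr1:41155971-41159231 at 3260 bp, chr1:144998351-145001541 at 3190 bp and chr1:42202571-42205751 at 3180 bp. Then came chr19:54709931-54712931 at 3000 bp, chr1:156434341-156437280 at 2939 bp, chr1:6086591-6089421 at 2830 bp and chr1:41250811-41253601 at 2790 bp. All but the 2939 and 2830 bp regions are out-of-order rows, and 7 of the 8 are on chromosome 1. Among in-order regions the widest after these were chr2:153573021-153575790 (2769 bp), chr16:31139811-31142380 (2569 bp) and chr16:2010171-2012681 (2510 bp). The narrowest regions, 120 bp on chromosome 3, 140 bp on chromosome 5 and 169 bp on chromosome 19, were out-of-order rows. The narrowest in-order region had 220 bp. Both ends of the width range were thus held by out-of-order rows.

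**Figure D3:**
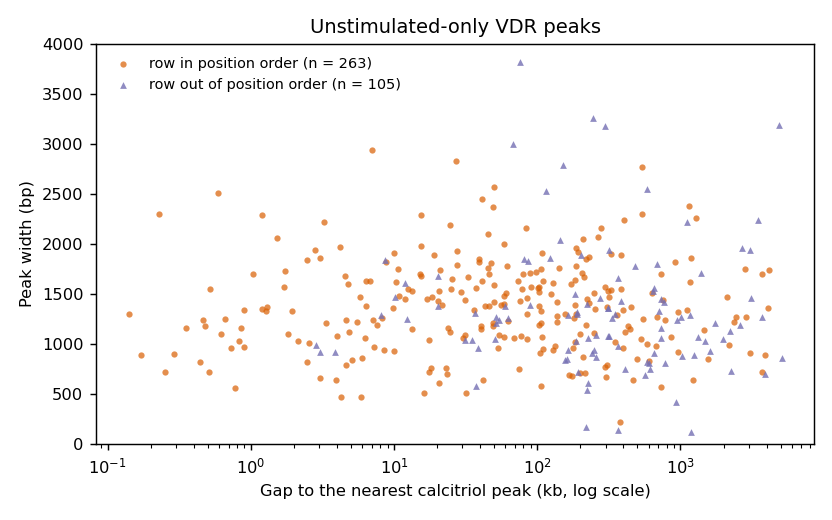
Width (vertical axis, bp) of each of the 368 unstimulated-only regions against its gap to the nearest calcitriol peak (horizontal axis, kb, log scale), with circles for the 263 in-order and triangles for the 105 out-of-order regions. No triangle lies to the left of 2.86 kb, and the 5 regions of 3000 bp or more are all triangles, at gaps from 67.6 to 4855 kb.

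All 23 chromosomes on which peaks were listed, 1 to 22 and X, carried unstimulated-only regions. Chromosome 1 had the most, 53, of which 18 were out of order. Chromosome 19 followed with 47 (8 out of order), chromosome 16 with 29 (10), chromosome 11 with 26 (8) and chromosome 22 with 19 (4). Chromosome X had 2 and chromosome 13 had 4. On chromosome 17 all 13 regions were in order, and its 10 out-of-order rows were string pieces. As a share of the single peaks of a chromosome, the regions ranged from 31.1% on chromosome 6 (14 of 45, interval 18.2 to 46.6%) to 71.4% on chromosome 21 (10 of 14, interval 41.9 to 91.6%). They outnumbered shared single peaks on 5 chromosomes, namely 11, 18, 20, 21 and 22, and with in-order regions alone on chromosome 21 only, with 7 against 4. Over the whole list the regions were 43.4% of single peaks, and the interval of each of these 5 chromosomes includes that share. Among single peaks listed in order the shares of these 5 were 43.9, 20.0, 44.4, 63.6 and 45.5%. The whole list had 35.4% there. Chromosomes 20 and 18 have only 11 and 9 single peaks, and the intervals of their shares reach from 23.4 to 83.3% and from 21.2 to 86.3%. The differences between chromosomes were not tested.

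**Figure D4:**
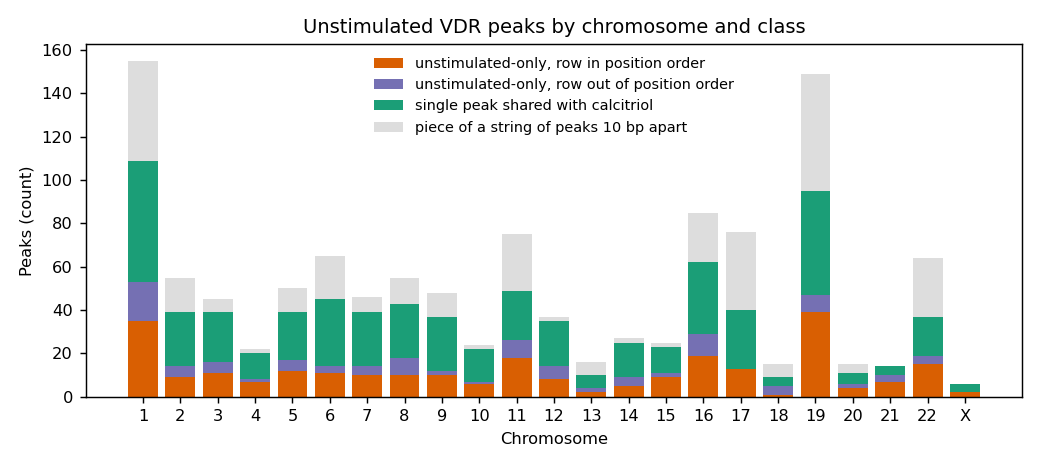
Number of unstimulated VDR peaks (vertical axis) on each chromosome (horizontal axis), stacked by class: unstimulated-only regions in position order, unstimulated-only regions out of order, single peaks shared with the calcitriol list and string pieces. Chromosomes 1 and 19 carry 53 and 47 unstimulated-only regions, and on chromosome 21 they make up 10 of 14 peaks.

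Chromosome 21 held the run with the most unstimulated-only regions in a row, where a shared peak or a string piece ends a run. From 38629991 to 46955481, over 8.33 Mb, all 7 unstimulated peaks in a row were unstimulated-only regions, from 809 to 1619 bp wide, and 2 of them were out of order. The calcitriol list had 7 peaks of its own within this stretch. The regions of this run closest to a calcitriol peak were the one at 45751551 to 45752471, 3.02 kb away, and the one at 46954261 to 46955481, 5.55 kb away. At 39573461 to 39574270 the nearest calcitriol peak was 783.9 kb away. Both states thus had peaks in this stretch, and that none coincided follows from how a run is defined. Runs of 5 or more were found at 3 further places. One on chromosome 15 from 75744881 to 91428771 had 5 in-order regions over 15.7 Mb, with 10 calcitriol peaks among them. One on chromosome 11 from 61594101 to 62573771 had 5 regions in 0.980 Mb, 1 of them out of order, with 3 calcitriol peaks. The run on chromosome 1 is described next. With the out-of-order rows left out, 2 runs of 5 were found, on chromosomes 15 and 21.

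On chromosome 1, 6 unstimulated-only regions followed each other from 40263811 to 41329011, with 0 calcitriol peaks over 1.07 Mb. Their widths were 1400, 910, 3260, 2790, 1860 and 3820 bp in order of position. All 6 are out-of-order rows, so that without those rows neither list has a peak in this stretch. The nearest calcitriol peak was between 75.8 and 245.6 kb from each. For the first 2 of these regions it was a calcitriol-only peak starting at 40040501. For the other 4 it was a peak of 1350 bp starting at 41404851, which overlapped an in-order unstimulated peak. The regions at 42202571 (3180 bp) and 43148411 (2530 bp) further along were out of order as well, with calcitriol peaks 294.9 and 115.4 kb away. The 4 widest regions of the set include 3 from this part of chromosome 1.

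Groups of 3 or more regions within 100 kb were found at 7 places and held 22 of the 368 regions. In 3 of the groups no calcitriol peak lay between the first and last region. One is the group on chromosome 1 from 41250811 to 41329011, made of 3 of the out-of-order regions above. Another, on chromosome 11 from 46368331 to 46391641, had 3 in-order regions of 720, 2290 and 930 bp in 23.3 kb, and calcitriol peaks lay 0.25, 15.3 and 10.1 kb from them, outside the group. The last of these, on chromosome 16 from 4356671 to 4454930, had regions of 1749, 1270 and 1909 bp, the middle one out of order.

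In the other 4 groups calcitriol peaks lay among the regions. A second place on chromosome 11, from 61560191 to 61638061, had 4 regions (1 out of order) and 1 shared peak among them, with 1 calcitriol peak. On chromosome 22 from 36696971 to 36783561, 3 in-order regions of 1789, 1600 and 760 bp lay with 2 further unstimulated peaks and 1 calcitriol peak. A different kind of neighbourhood appeared on chromosome 1 from 156434341 to 156471781 and on chromosome 19 from 803141 to 868161. There the 3 regions were part of clusters of 9 and 15 unstimulated peaks, 6 and 12 of them shared, with 7 and 16 calcitriol peaks. Of these calcitriol peaks 4 and 9 were string pieces, and some of the unstimulated peaks were too, so the counts are not of separate sites. The regions of the chromosome 1 cluster lay 7.03, 0.44 and 0.85 kb from a calcitriol peak, and those of the chromosome 19 cluster 1.19, 1.70 and 5.12 kb. In these clusters most unstimulated peaks kept a counterpart and single ones between or beside them did not.

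**Figure D5:**
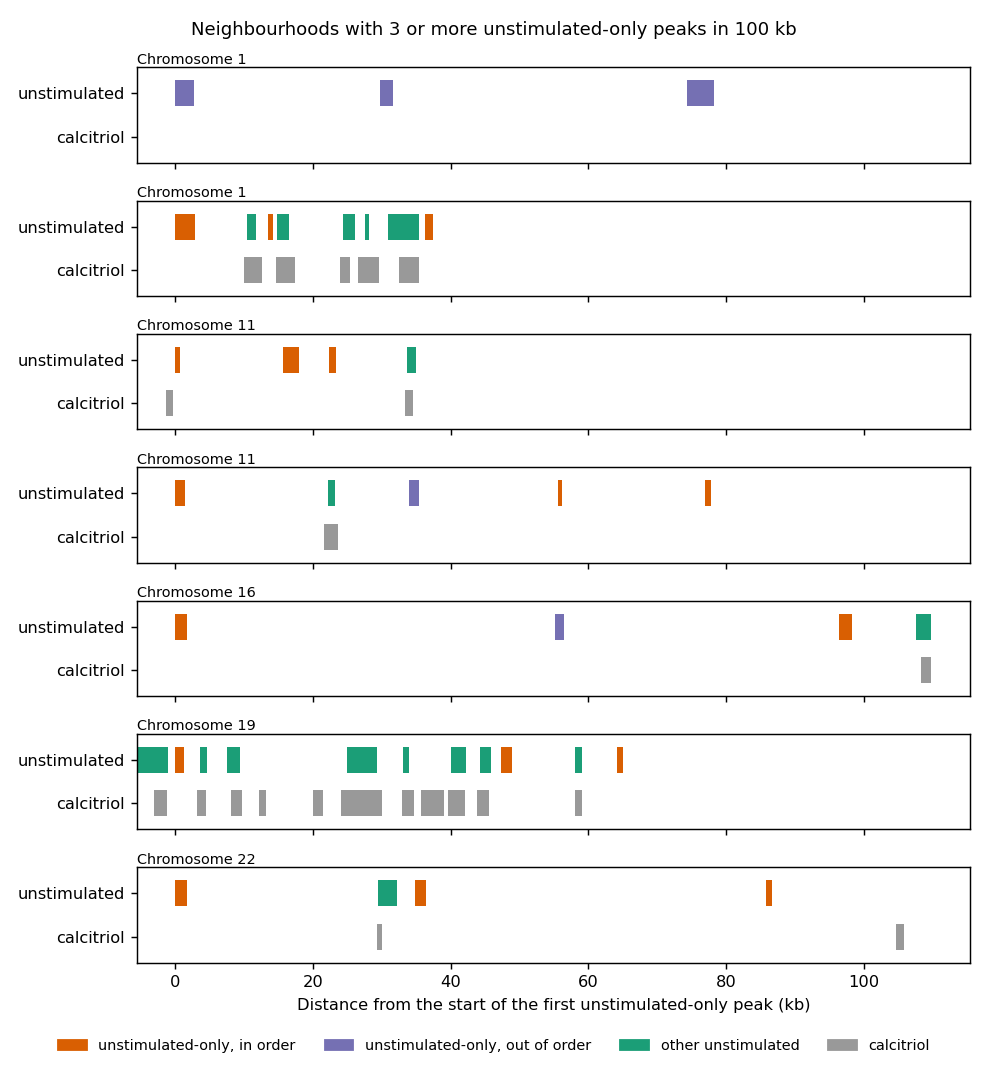
Map of the 7 groups of 3 or more unstimulated-only regions within 100 kb, each drawn from the start of its first region (horizontal axis, kb) with the unstimulated peaks in the upper row and the calcitriol peaks in the lower row of each panel. Bars are peaks to scale and adjoining string pieces look like one bar. The first group on chromosome 1 and the groups without calcitriol peaks between their regions contrast with the second group on chromosome 1 and the group on chromosome 19, where 7 and 16 calcitriol peaks lie among them.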

How the data were processed

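VDR ChIP-seq peak lists of 2 conditions of THP-1 cells were used, 1 library each. The submitters' processing notes name Bowtie as the aligner and hg19 as the build. How peaks were called and filtered, and whether against the IgG library, is not given in the sources used here. Values in the deposited lists are genomic positions, printed as deposited, and the authors gave no score or depth. Width is end minus start.

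Peaks sharing at least 1 bp were called shared. On each chromosome, rows from the first break of ascending starts onward were called out of order. Shares have exact Clopper-Pearson 95% intervals, medians exact order-statistic intervals, and the limit of a count of 0 is 3 counts. No test between conditions was possible. Functions were checked on simulated lists. Scripts ran in Python 3.11.15 with scipy 1.17.1, pandas 2.3.3, numpy 2.4.6 and matplotlib 3.10.9.

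The regions and the lists they were compared with were chosen with earlier results of these data known. Named regions are the 8 widest, the 5 nearest to and farthest from a calcitriol peak, those sharing the fewest bp, and groups of 3 or more within 100 kb. Further in-order or narrow regions, and runs of 5 or more, were picked after their values were seen. Motifs, base composition, promoters and gene lists were not analysed, because a genome of this build was not used here.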

Additional observations from a re-analysis of the deposited data

How the results depend on the processing

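Of 21 alternative values, 15 stayed within 1.5 times of a reported count or inside the exact interval of a reported value, and 6 moved. The number of regions was 459 where a reciprocal overlap of 50% was required for sharing, 348 where a gap of up to 1000 bp counted as shared, and 263 without out-of-order rows. Removing these rows lowered the median gap to the nearest calcitriol peak from 105.8 to 58.3 kb (57.2 kb with the rule applied anew), raised the share with a calcitriol peak within 100 kb from 48.1 to 57.4%, and left 35 regions on chromosome 1 and 19 on chromosome 16. With a distance of 50 kb in place of 10 kb, 34.8% of regions had another unstimulated peak nearby, because the window is wider. The rule applied anew and the share within 100 kb were added after seeing the data. No library could be left out, and no paired analysis was possible because only 1 library stands for each condition. Alternatives for motifs, base composition, promoters and listed genes were not run. Without depth or peak heights, absence from the calcitriol list and signal below its threshold cannot be told apart.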

Other observations

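String pieces were also set beside row order in the unstimulated list. Of its 194 pairs of peaks 10 bp apart, 119 joined peaks that were both in position order, 68 joined an in-order and an out-of-order row, and 7 joined a pair of out-of-order rows. Out-of-order rows made up 65 of the 321 string pieces (20.2%), against 105 of 368 unstimulated-only regions and 0 of 480 shared single peaks. Over the whole list they made up 170 of 1169 peaks, and a link between strings and row order was not tested.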
